A study of Caenorhabditis elegans with 17 samples.

Results

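The transcripts described here are the 5 gonadal innexins of Caenorhabditis elegans, inx-8, inx-9, inx-14, inx-21 and inx-22, which were taken by gene name from the 26786 genes of the FPKM table. FPKM counts fragments per kilobase of transcript and per M mapped fragments, so levels of different genes can be set side by side on a per-length scale. All 5 were found, all 5 were at an FPKM of at least 1 in each of the 17 libraries, and all 5 were among the 13084 genes tested.

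RNA came from whole day 1 adults, aged 96 h at 20 °C, and was sequenced in 17 libraries that the labels call biological replicates. Every animal, controls included, carried rmIs133 [unc-54p::Q40::YFP], a transgene in which the body wall muscle promoter of unc-54 drives a polyglutamine protein fused to YFP. Feeding RNAi, in which worms eat bacteria that make double-stranded RNA against a chosen transcript, gave 4 groups: ash-2 (n = 4), hsf-1 (n = 4), ash-2 + hsf-1 (n = 4) and the empty vector L4440 (n = 5). ASH-2 is a core subunit of complexes that methylate lysine on histone H3, and HSF-1 is the transcription factor of the heat shock response. Where RNAi included ash-2, with or without hsf-1, the parents had been on ash-2 RNAi too, so the effect of RNAi in the animals and in their parents cannot be told apart in comparisons of these groups with hsf-1 or L4440. Feeding RNAi acts in many tissues at once, and the measured animals were whole, so a lower value can stand for fewer cells of a type or for less RNA per cell, which cannot be told apart.

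Innexins are the gap junction proteins of invertebrates. In the hermaphrodite gonad, INX-8 and INX-9 form the half-channels of the somatic cells, the sheath cells and the distal tip cell, and INX-14, INX-21 and INX-22 form those of the germ cells. Channels with INX-14 and INX-21 on the germline side support germ cell proliferation, channels with INX-14 and INX-22 hold back oocyte meiotic maturation when sperm are absent, and the junctions are known to pass malonyl-CoA from soma to germline. INX-8 and INX-9 are close paralogs with overlapping functions.

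The largest differences among the gonadal innexins were in inx-8. Its FPKM in hsf-1 animals was 29.3% of the L4440 mean, and in ash-2 + hsf-1 animals it was 37.8%. Its transcript level fell in each comparison that set hsf-1 RNAi against its absence. inx-9, the other somatic innexin, and the germline innexins inx-14, inx-21 and inx-22 did not pass the test in any comparison of groups in the fit of all 17 libraries on the deposited FPKM. Calls for inx-9, inx-14 and inx-22 appeared under some alternatives.

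The targeted transcripts were measured first. The ash-2 transcript was at 33.3% of the L4440 mean in ash-2 animals (log2 change -1.74 ± 0.43 SE, adjusted p = 0.00823 by limma) and at 51.7% in ash-2 + hsf-1 animals, where the groups did not overlap but the change did not pass the test (-1.01 ± 0.43, adjusted p = 0.203). The ash-2 transcript did not separate every library by its label: it was at 5.57 FPKM in hsf-1 replicate 4, below ash-2 replicates 2 and 4 at 8.68 and 8.54. With the number of detected genes as a covariate, chosen after seeing the data, its change in ash-2 animals was -0.58 and not called (adjusted p = 0.06). That number was 9401 to 11189 in ash-2 and 11459 to 12664 in L4440 animals, without overlap. Here and below, the covariate fit thus cannot tell ash-2 RNAi from detected genes when ash-2 animals are compared with L4440. The hsf-1 transcript was at 41.9% of the L4440 mean in hsf-1 animals (-1.27 ± 0.29, adjusted p = 0.00858) and at 32.6% in ash-2 + hsf-1 animals (-1.60 ± 0.29, adjusted p = 0.00167). Of the 17 libraries, 4 had between 9401 and 10745 genes at an FPKM of at least 1, and the other 13 had between 11170 and 13066. These 4 were ash-2 replicates 1 and 3, hsf-1 replicate 4 and ash-2 + hsf-1 replicate 3. Fits without these 4 libraries rest on ash-2 replicates 2 and 4 alone in that group, so they can lose a call without a change in its size. Depth, estimated from the smallest steps between FPKM values, was 16.3 to 19.5 M fragments, and sperm transcripts stood apart in ash-2 animals, with a summed FPKM of 257.6 to 708.1 over 35 genes against 2676.4 to 2876.3 in L4440 animals. The part of library quality and of sperm number in the innexin values was not tested.

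The genes fall in 3 places on the genome (WBcel235, Ensembl annotation). inx-8 (WBGene00002130, ZK792.2) lies on the plus strand of chromosome IV at 11673843 to 11675635, and inx-9 (WBGene00002131, ZK792.3) follows it on the same strand at 11676354 to 11678497, after a gap of 718 bases. Both have 4 exons and a coding length of 1146 bases. Their first 3 exons have the same lengths in order, 167, 687 and 256 bases, while the last exon has 246 bases in inx-8 and 191 in inx-9. Paralogs of this kind can share reads, so the values of the pair were also summed.

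inx-22 (WBGene00002144, Y47G6A.2) lies on the plus strand of chromosome I at 3608518 to 3611844, with 7 exons. inx-21 (WBGene00002143, Y47G6A.1) starts 97 bases after it on the same strand, at 3611942 to 3618317, with 9 exons. inx-14 (WBGene00002136, F07A5.1) lies elsewhere on chromosome I, on the minus strand at 7350309 to 7352235, with 8 exons. inx-14 overlaps kbrl-1 on the opposite strand by 78 bases, and inx-9 overlaps ZK792.4 on the opposite strand by 62 bases. The library kit kept strand, per the labels' protocols, and whether the counting used it is not given in the sources used here, so reads in these stretches may count for either gene.

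**Figure D1:**
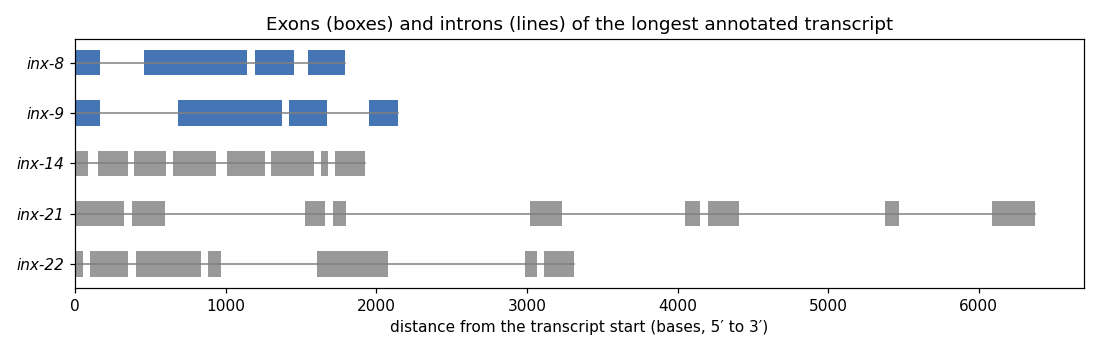
Exons (boxes) and introns (lines) of the longest annotated transcript of each gonadal innexin, drawn to scale from its 5′ end, in bases. The somatic pair inx-8 and inx-9, in blue, shares the order and size of its first 3 exons, and the germline innexins, in grey, have 7 to 9 exons.

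inx-8 separated the groups most widely. Its FPKM was 67.3, 67.1, 64.9 and 64.3 in ash-2 animals, 15.2, 13, 9.44 and 13.7 in hsf-1 animals, 17.9, 20.0, 19.2 and 9.02 in ash-2 + hsf-1 animals, and 45.3, 44.8, 43.1, 46.6 and 39.0 in L4440 animals. All 4 ash-2 libraries lay above all 5 L4440 libraries, and all 8 libraries from animals on hsf-1 RNAi, alone or with ash-2, lay below them. The hsf-1 and ash-2 + hsf-1 libraries overlapped. The group means were 65.9 ± 1.54 in ash-2, 12.8 ± 2.45 in hsf-1, 16.5 ± 5.09 in ash-2 + hsf-1 and 43.7 ± 2.93 in L4440 animals (SD). An estimated 199 to 1744 fragments per library stood behind these values.

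With hsf-1 RNAi against L4440, inx-8 fell by 1.75 on the log2 scale (log2 change -1.75 ± 0.21 SE, 95% interval -2.18 to -1.31, adjusted p = 2.36e-05 by limma with Benjamini-Hochberg adjustment over all 13084 genes). It was 1 of the 5 gonadal innexins called in this comparison, where 10.6% of all genes tested were called and 2.91% were called lower. In ash-2 + hsf-1 animals against L4440 the change was -1.44 ± 0.21 (95% interval -1.87 to -1.0, adjusted p = 0.000183), and again inx-8 was the 1 member called, beside 9.08% of all genes called and 5.40% called lower. It was also the 1 member whose groups did not overlap there, as did not those of 12.6% of all genes, and of 7.41% in the lower direction. Every alternative tried kept both calls.

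The same fall appeared on an ash-2 background. In ash-2 + hsf-1 animals against ash-2 animals, inx-8 changed by -2.02 ± 0.22 (95% interval -2.48 to -1.57, adjusted p = 1.28e-05), which was its largest change in any comparison. It was 1 of 5 members called, where 15.8% of all genes were called and 3.76% were called lower. It was the 1 of 5 whose groups did not overlap, beside 18.1% of all genes and 5.18% in the lower direction. Leaving out the 4 libraries with few detected genes, an alternative chosen after seeing the data, gave -1.78 for hsf-1 and -1.53 for ash-2 + hsf-1 against L4440, and -2.11 for ash-2 + hsf-1 against ash-2. The difference between the effect of ash-2 RNAi with and without hsf-1 RNAi, the interaction, was -0.28 ± 0.30 for inx-8 (95% interval -0.91 to 0.36, adjusted p = 0.737).

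With ash-2 RNAi alone, inx-8 was at 151% of the L4440 mean. The groups did not overlap, as was true of 1 of the 5 members and of 27.3% of all genes tested, and of 8.84% in the higher direction. The log2 change of 0.59 ± 0.21 (95% interval 0.15 to 1.02) missed the threshold, with an adjusted p of 0.0544, so 0 of 5 members were called by limma at an adjusted p under 0.05, beside 19.6% of all genes, and 1 member had an unadjusted p under 0.05. This call depended on which libraries were fitted. inx-8 passed in a fit of the ash-2 and L4440 libraries alone (0.59, adjusted p = 0.000593). It missed with the 4 few-gene libraries left out, ash-2 replicates 1 and 3 among them, where its change was nearly the same (0.58, adjusted p = 0.166). It also passed when hsf-1 replicate 3 (adjusted p = 0.0465), hsf-1 replicate 4 (0.047), ash-2 + hsf-1 replicate 2 (0.0496) or ash-2 + hsf-1 replicate 4 (0.00378) was left out of the shared estimate of spread, and over all alternatives that left out 1 library the adjusted p was 0.00378 to 0.124. The median log2 change of all genes in this comparison was -0.32, and after median-of-ratios scaling, which moved that median to -0.03, inx-8 changed by 0.93 (adjusted p = 0.0144).

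**Figure D2:**
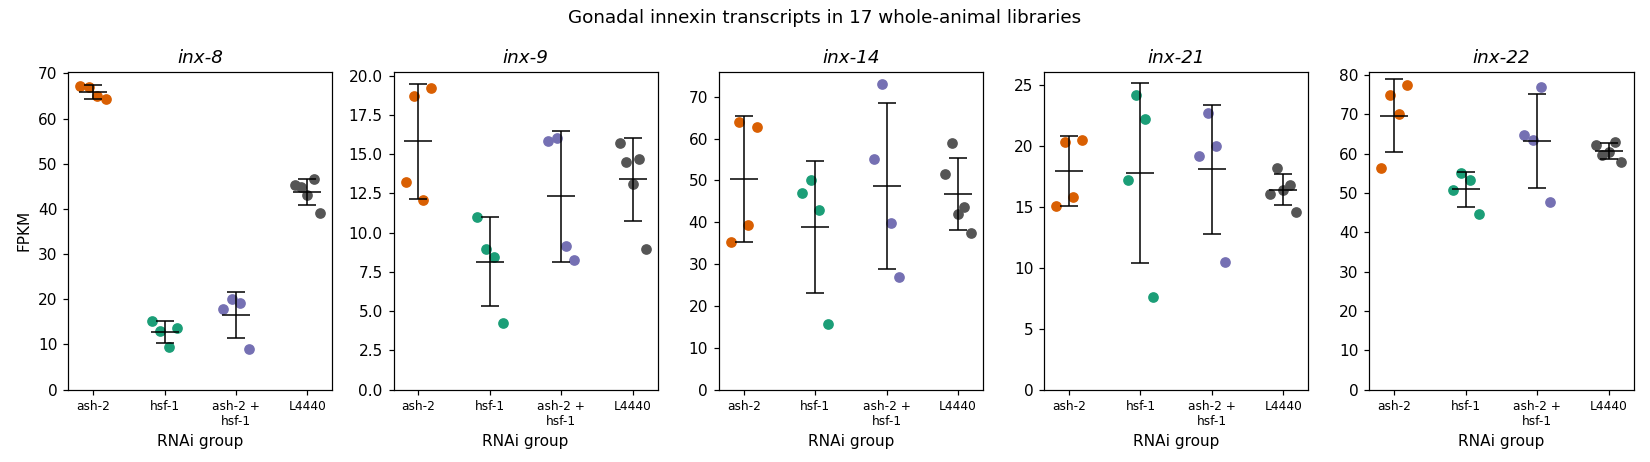
FPKM of each gonadal innexin in the 17 libraries (points), by RNAi group, with the group mean and SD (bars), each panel on its own linear axis from 0. inx-8 lies between 9.02 and 20.0 in the 8 libraries with hsf-1 RNAi and between 39.0 and 67.3 in the other 9, while inx-14 and inx-21 overlap among all groups.

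inx-9, the second somatic innexin, was lower in level and less separated. Its FPKM was 13.2, 18.7, 12.1 and 19.2 in ash-2 animals, 11, 8.97, 8.44 and 4.21 in hsf-1 animals, 15.8, 16, 9.17 and 8.22 in ash-2 + hsf-1 animals, and 15.7, 14.5, 13.1, 14.7 and 8.93 in L4440 animals. The hsf-1 libraries lay below all ash-2 libraries and overlapped L4440 through L4440 replicate 5. The lowest value came from hsf-1 replicate 4, one of the libraries with few detected genes.

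The log2 change of inx-9 in hsf-1 animals against L4440 was -0.73 ± 0.29 (95% interval -1.34 to -0.12), with an adjusted p of 0.132. This call changed with the processing. The change was -0.73 with an adjusted p of 0.00943 after median-of-ratios scaling, and -0.79 with an adjusted p of 0.0033 after quantile normalization. It was -0.47 (adjusted p = 0.178) without the 4 libraries with few detected genes, and -0.91 (adjusted p = 0.00076) with the number of detected genes as a covariate, under which 5181 of the 13084 genes were called. With the replicate number fitted as a block, the change was -0.66 (adjusted p = 0.038) by the numbers in the sample descriptions. By the numbers in the sample titles it was -0.87 (0.0822). Over all alternatives that left out 1 library the adjusted p was 0.0947 to 0.281.

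In the other comparisons inx-9 changed by 0.23 ± 0.29 in ash-2 animals against L4440 (adjusted p = 0.59), by -0.15 ± 0.29 in ash-2 + hsf-1 animals against L4440 (adjusted p = 0.971), and by -0.38 ± 0.30 in ash-2 + hsf-1 against ash-2 animals (adjusted p = 0.415). In ash-2 + hsf-1 animals against hsf-1 animals the change was 0.58 ± 0.30 (adjusted p = 0.307). After median-of-ratios scaling 3 of these 4 passed, at 0.56 in ash-2 animals (adjusted p = 0.0265), -0.64 in ash-2 + hsf-1 against ash-2 animals (0.0191) and 0.64 in ash-2 + hsf-1 against hsf-1 animals (0.0304), each in the direction seen without scaling.

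Summing inx-8 and inx-9 removes any split of shared reads between them. The sum changed by -1.44 ± 0.19 in hsf-1 animals against L4440 (adjusted p = 7.18e-05), by -1.02 ± 0.19 in ash-2 + hsf-1 animals against L4440 (0.00191) and by -1.54 ± 0.20 in ash-2 + hsf-1 against ash-2 animals (6.96e-05). It changed by 0.52 ± 0.19 in ash-2 animals against L4440, which missed the threshold (0.065). The calls for the somatic pair were thus those of inx-8 alone.

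The germline innexins came next. inx-14, the subunit common to the known germline half-channels, had 35.4, 63.9, 39.4 and 62.8 FPKM in ash-2 animals, 46.9, 50.0, 43.0 and 15.6 in hsf-1 animals, 55.1, 73.1, 39.8 and 27 in ash-2 + hsf-1 animals, and 51.6, 59.0, 42.0, 43.6 and 37.4 in L4440 animals. All 4 groups overlapped. The spread within groups was wide, with an SD of 15.1 around a mean of 50.4 in ash-2, 15.8 around 38.9 in hsf-1, 19.9 around 48.7 in ash-2 + hsf-1 and 8.57 around 46.7 in L4440 animals.

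In ash-2 animals the lower pair of inx-14 values came from replicates 1 and 3, and in hsf-1 animals the lowest came from replicate 4, all with few detected genes. The lowest ash-2 + hsf-1 value came from replicate 4, which was not among those libraries. Against L4440, inx-14 changed by 0.08 ± 0.34 in ash-2 animals (adjusted p = 0.889), by -0.37 ± 0.34 in hsf-1 animals (0.61) and by -0.02 ± 0.34 in ash-2 + hsf-1 animals (0.998). The 95% intervals ran -0.63 to 0.79 in ash-2, -1.08 to 0.34 in hsf-1 and -0.72 to 0.69 in ash-2 + hsf-1 animals. These values depended on how few-gene libraries were handled, in 2 alternatives chosen after seeing the data. With the number of detected genes as a covariate, inx-14 changed by 0.94 in ash-2 (adjusted p = 0.00383) and -0.61 in hsf-1 animals (0.0116). That fit called 3710 and 5181 of all 13084 genes. For ash-2 animals it cannot tell the RNAi from the number of detected genes, which did not overlap with L4440. Without the 4 libraries with few detected genes inx-14 changed by 0.45 (0.348) and 0.01 (0.981).

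inx-21, the partner of inx-14 in channels that support germ cell proliferation, had 15.1, 20.3, 15.8 and 20.5 FPKM in ash-2 animals, 17.2, 24.2, 22.2 and 7.57 in hsf-1 animals, 19.2, 22.7, 20.0 and 10.5 in ash-2 + hsf-1 animals, and 16.1, 18.2, 16.4, 16.8 and 14.6 in L4440 animals. The groups overlapped throughout, and both the highest and the lowest of the 17 values were in hsf-1 animals. Its log2 change against L4440 was 0.11 ± 0.29 in ash-2 (adjusted p = 0.806), -0.01 ± 0.29 in hsf-1 (0.994) and 0.09 ± 0.29 in ash-2 + hsf-1 animals (0.991). The value of 7.57 in hsf-1 replicate 4 weighed on this result, since without that library the change in hsf-1 animals was 0.35 (adjusted p = 0.364).

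inx-22, the partner of inx-14 in channels that hold back meiotic maturation, was the most abundant of the 5 per length. It had 56.4, 75.0, 70.1 and 77.4 FPKM in ash-2 animals, 50.9, 55.0, 53.2 and 44.6 in hsf-1 animals, 64.7, 63.5, 77.0 and 47.8 in ash-2 + hsf-1 animals, and 62.3, 59.7, 60.4, 63.1 and 58.0 in L4440 animals. The hsf-1 libraries all lay below the L4440 libraries, so that inx-8 and inx-22 were the 2 members of 5 whose groups did not overlap in this comparison, beside 17.4% of all genes tested and 6.92% in the lower direction. The change of inx-22 was small, -0.25 ± 0.14 (95% interval -0.54 to 0.04, adjusted p = 0.31).

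inx-22 changed by 0.19 ± 0.14 in ash-2 animals (adjusted p = 0.333) and by 0.04 ± 0.14 in ash-2 + hsf-1 animals (0.991) against L4440. Adding ash-2 RNAi to hsf-1 RNAi gave 0.29 ± 0.14 for inx-22 and 0.31 ± 0.22 for inx-8, with adjusted p of 0.264 and 0.507. In this comparison 0 of 5 members were called by limma, 0 had an unadjusted p under 0.05, and 9.71% of all genes were called. ash-2 + hsf-1 replicate 4, which held the lowest inx-8 and inx-22 values of its group, decided this: without it inx-8 changed by 0.57 (adjusted p = 0.0229) and inx-22 by 0.42 (0.0389). For the interaction limma called 0 of 5 members, with 0 at an unadjusted p under 0.05, beside 0.107% of all genes.

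**Figure D3:**
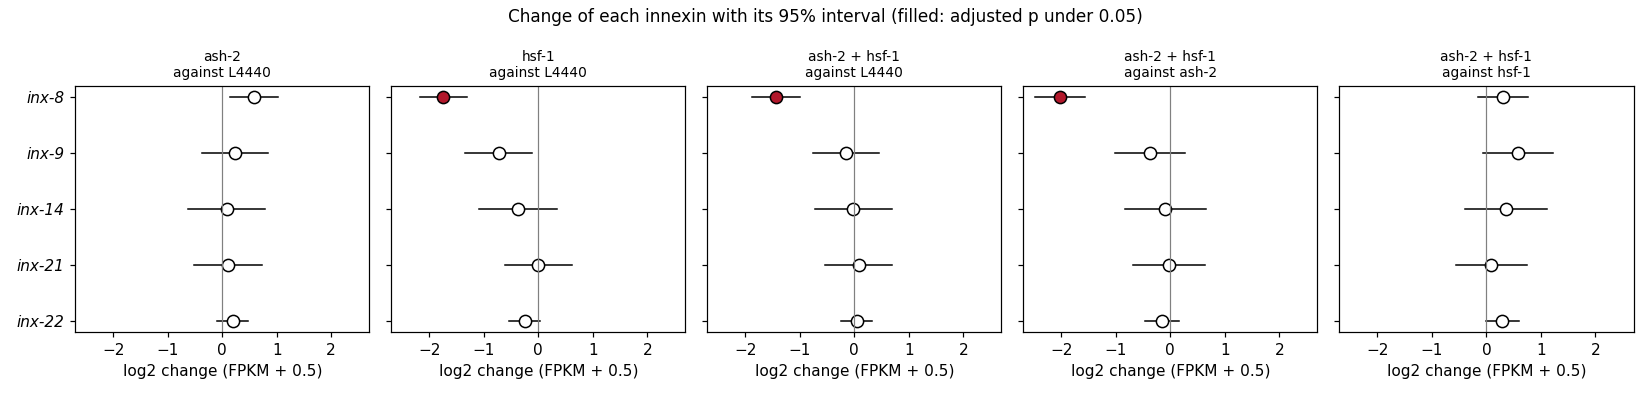
Change of each gonadal innexin (rows) in 5 comparisons (panels) on the log2(FPKM + 0.5) scale, as the limma estimate with its 95% interval; filled points passed an adjusted p of 0.05. inx-8 is the only filled point, at -1.75, -1.44 and -2.02, and the intervals of inx-14 and inx-21 include 0 in every panel.

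The median change over the 5 members differed in direction between comparisons. It was 0.19 in ash-2 animals against L4440, where the median of all genes was -0.32, and -0.37 in hsf-1 animals, where it was -0.03. In ash-2 + hsf-1 animals against L4440 it was -0.02 beside -0.07. Against ash-2 animals it was -0.15 beside 0.27, and against hsf-1 animals 0.31 beside -0.03. All 5 members shared a sign in each comparison of groups but ash-2 + hsf-1 against L4440. Some of the smaller changes turned sign under alternatives. These medians describe 5 genes and were not tested.

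Ratios between innexins within a library do not depend on how the library was scaled. The ratio of inx-8 to inx-22 was 0.83 to 1.19 in ash-2 animals, 0.177 to 0.306 in hsf-1 animals, 0.189 to 0.316 in ash-2 + hsf-1 animals and 0.673 to 0.75 in L4440 animals. The 8 libraries with hsf-1 RNAi thus lay apart from the other 9, and the ash-2 libraries lay above the L4440 libraries. The ratio of inx-8 to inx-9 was 3.34 to 5.38 in ash-2, 1.12 to 3.25 in hsf-1, 1.1 to 2.09 in ash-2 + hsf-1 and 2.88 to 4.37 in L4440 animals. The hsf-1 value of 3.25 was in replicate 4, where inx-9 was lowest, and without it the hsf-1 libraries also lay below L4440. These ratios show unequal differences between genes and not which of the genes changed.

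Together inx-8 and inx-9 made up 34.2% to 43.0% of the summed FPKM of the 5 innexins in ash-2 animals, 13.1% to 20.9% in hsf-1 animals, 16.8% to 19.5% in ash-2 + hsf-1 animals and 30.2% to 33.2% in L4440 animals. The share taken by the somatic pair therefore separated libraries with hsf-1 RNAi from libraries without it. The germline pair behaved otherwise, with an inx-21 to inx-14 ratio of 0.318 to 0.428 in ash-2, 0.368 to 0.517 in hsf-1, 0.311 to 0.503 in ash-2 + hsf-1 and 0.309 to 0.391 in L4440 animals, overlapping among all 4 groups. The ratio of inx-9 to inx-21 was 0.766 to 0.937 in ash-2, 0.371 to 0.635 in hsf-1, 0.458 to 0.824 in ash-2 + hsf-1 and 0.611 to 0.978 in L4440 animals.

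**Figure D4:**
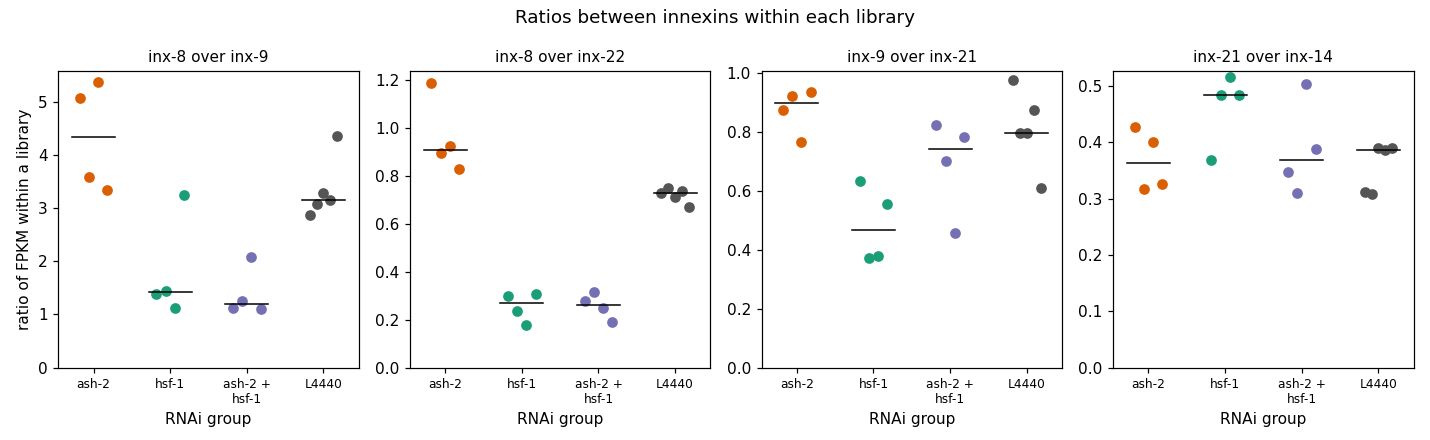
Ratio of the FPKM of one innexin to another within each library (points), by RNAi group, with the group median (line) and a linear axis from 0 in each panel. The inx-8 to inx-22 ratio stays at or under 0.316 in all 8 libraries with hsf-1 RNAi and at or over 0.673 in the other 9, while the inx-21 to inx-14 ratio overlaps among all groups.

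The order of the levels per length changed with inx-8. In ash-2 animals the means ran inx-22 (69.7 FPKM), inx-8 (65.9), inx-14 (50.4), inx-21 (17.9) and inx-9 (15.8). In hsf-1 animals they ran inx-22 (50.9), inx-14 (38.9), inx-21 (17.8), inx-8 (12.8) and inx-9 (8.14), and the order was the same in ash-2 + hsf-1 animals, at 63.2, 48.7, 18.1, 16.5 and 12.3 FPKM. In L4440 animals it was inx-22 (60.7), inx-14 (46.7), inx-8 (43.7), inx-21 (16.4) and inx-9 (13.4).

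The group ranges of neighbours in that order often overlapped. In L4440 animals only the ranges of inx-8 and inx-21 stood apart among neighbours, at 39.0 to 46.6 and 14.6 to 18.2. The range of inx-22 overlapped that of inx-14, inx-14 overlapped inx-8, and inx-21 overlapped inx-9. Within single L4440 libraries the inx-22 to inx-14 ratio was 1.01 to 1.55 and the inx-9 to inx-21 ratio 0.611 to 0.978. Those orders thus held in every L4440 library, while the inx-8 to inx-14 ratio, at 0.758 to 1.07, did not keep 1 order. In hsf-1 animals inx-21, at 7.57 to 24.2, overlapped inx-8, at 9.44 to 15.2. inx-8 thus overlapped inx-14 in L4440 animals and inx-21 in hsf-1 animals.

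Across the 17 libraries, Pearson's r of log2(FPKM + 0.5) was 0.88 between inx-14 and inx-21 and 0.86 between inx-14 and inx-9. It was 0.65 between inx-8 and inx-9, 0.62 between inx-8 and inx-22, 0.34 between inx-8 and inx-14 and 0.12 between inx-8 and inx-21. With group means removed, inx-14 and inx-9 had an r of 0.92 and inx-14 and inx-21 of 0.91, while inx-8 and inx-9 had 0.38. These values describe libraries that share groups and scaling. The r with the number of genes detected in a library was -0.49 for inx-8, 0.06 for inx-9, 0.43 for inx-14, 0.42 for inx-21 and -0.26 for inx-22.

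Of 5293 genes with a symbol and a mean of at least 5 FPKM, the 3 whose pattern over the 17 libraries was most like that of inx-8 were acdh-1 (r = 0.96), daf-22 (0.95) and tbh-1 (0.94). acdh-1 encodes a short-chain acyl-CoA dehydrogenase, daf-22 a thiolase of peroxisomal beta-oxidation, and tbh-1 the enzyme that makes octopamine, which is known from RIC neurons and from gonadal sheath cells. tbh-1 averaged 61.8 ± 15.8 FPKM in ash-2, 10.5 ± 3.63 in hsf-1, 18.7 ± 7.57 in ash-2 + hsf-1 and 63.2 ± 6.69 in L4440 animals (SD). With group means removed these r were 0.68, 0.70 and 0.71, and the r of inx-8 with hsf-1 itself, 0.76 over all libraries, was -0.24.

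The other members had other neighbours. Those most like inx-9 were efn-4 (0.94), atz-1 (0.93) and ceh-43 (0.92), and those most like inx-14 were swd-2.2, gpaa-1 and kbrl-1 (0.97 each), the last being the gene that overlaps it. Those most like inx-21 were rfl-1 (0.97), fat-4 (0.96) and sds-22 (0.96), and those most like inx-22 were ptr-2 (0.95), meg-1 (0.94) and lsy-22 (0.94).

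The table held 20 other innexins, of which 16 were tested. By L4440 mean, the gonadal innexins took ranks 1, 4, 5, 9 and 10 of the 25. In ash-2 animals against L4440, 2 of the 16 rose and 0 fell: inx-2 by 1.37 ± 0.17 (adjusted p = 1.64e-05) and inx-3 by 0.83 ± 0.17 (0.00224). In hsf-1 animals against L4440, 0 rose and 2 fell, inx-2 (-0.64 ± 0.17, 0.0197) and inx-3 (-0.61 ± 0.17, 0.0341). Of all genes tested, 19.6% were called in the comparison of ash-2 with L4440 and 10.6% in that of hsf-1 with L4440. By direction, 546 of 13084 were called higher in the former, and 2.91% were called lower in the latter. Neither fall passed under median-of-ratios scaling, where the direction was kept. The fall of inx-2 was not called without L4440 replicate 5, hsf-1 replicate 2 or hsf-1 replicate 3. The fall of inx-3 was not called without any one of L4440 replicates 1, 2, 4 and 5 or hsf-1 replicates 2, 3 and 4. It was also not called with the replicate numbers of the titles as a block.

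inx-2 averaged 69.5 FPKM in ash-2, 16.9 in hsf-1, 31.7 in ash-2 + hsf-1 and 26.5 in L4440 animals, and inx-3 averaged 35.3 in ash-2, 12.8 in hsf-1, 19.8 in ash-2 + hsf-1 and 19.7 in L4440 animals. Like inx-8, then, both were highest with ash-2 RNAi and lowest with hsf-1 RNAi, but in ash-2 + hsf-1 animals against L4440 they changed by 0.24 (adjusted p = 0.595) and -0.02 (0.998), where inx-8 was called lower. INX-3 is known from embryonic and epithelial junctions. In ash-2 + hsf-1 against ash-2 animals 3 of the 16 fell (inx-2, inx-3 and inx-5) and 0 rose. Of all genes, 15.8% were called there and 3.76% were called lower. The fall of inx-3 in that comparison was not called in a fit of the compared groups alone, nor was that of inx-5. The inx-5 call also ended without ash-2 replicate 3 and without the 4 libraries with few detected genes. In ash-2 + hsf-1 against hsf-1 animals 1 rose, inx-2 (0.88, adjusted p = 0.00418), and 0 fell. Of all genes, 9.71% were called there, and 168 of 13084 were called higher. The inx-2 call too was lost in a fit of the compared groups alone (adjusted p = 0.108).

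**Figure D5:**
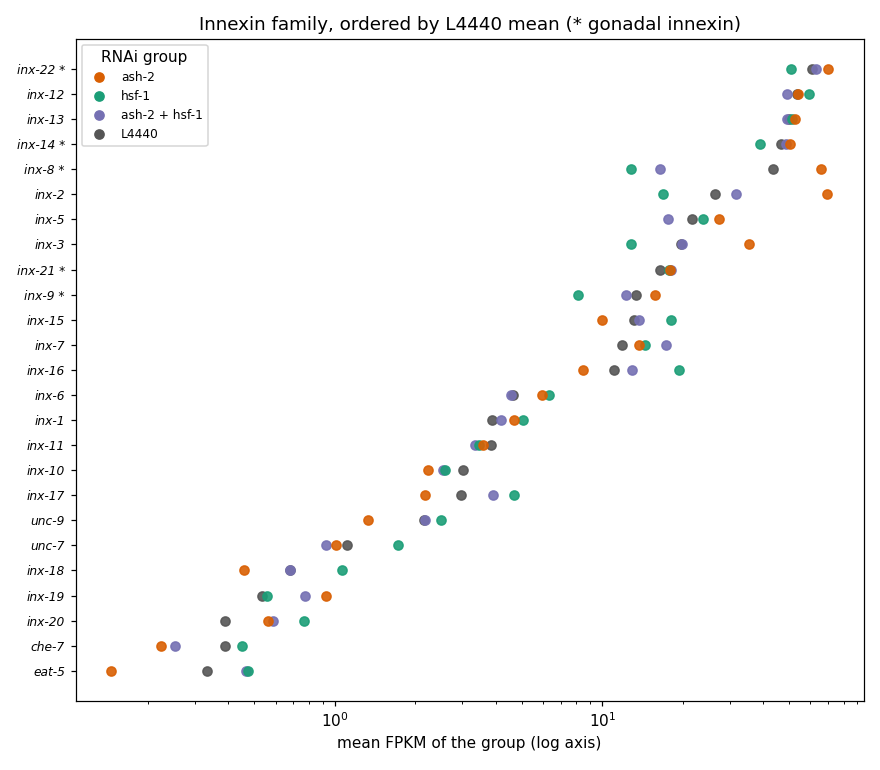
Mean FPKM of each of the 25 innexins in the table (rows, ordered by L4440 mean, gonadal innexins marked with a star) in the 4 RNAi groups (coloured points), on a log axis. The means of inx-8 spread from 12.8 to 65.9 and those of inx-2 from 16.9 to 69.5, while those of inx-12 and inx-13 lie close together.

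Other genes of the cells that carry these junctions were counted in lists. For the lists below, 19.6% of all genes tested were called in ash-2 and 10.6% in hsf-1 animals against L4440. At these shares, 0 called in a short list does not show that its cells were unchanged. Of 6 tested markers of the gonadal sheath and spermatheca, limma called 0 in hsf-1 animals against L4440 (1 at an unadjusted p under 0.05), with a median change of 0.21. The summed FPKM over 7 markers was 77.0 to 110.4 in hsf-1 animals and 77.7 to 88.7 in L4440 animals. Most of that sum came from 1 gene, fln-1, with means of 68.3 FPKM in hsf-1 and 60.3 in L4440 animals. The marker lim-7, a sheath cell transcription factor, averaged 2.07 ± 0.806 FPKM in hsf-1 and 3.05 ± 0.576 in L4440 animals (SD). ceh-18, another transcription factor of the sheath, averaged 6.52 ± 2.78 FPKM in hsf-1 and 5.34 ± 0.974 in L4440 animals (SD). In the whole list lim-7 alone had a lower mean in hsf-1 than in L4440 animals, and every other marker had a higher mean. No marker of the list was at 0 in a whole group. In ash-2 animals 1 of the 6 fell, ipp-5, an inositol phosphatase of the spermatheca (-1.01 ± 0.33, adjusted p = 0.0408). That call ended without the 4 libraries with few detected genes, which include ash-2 replicates 1 and 3. The ipp-5 call also ended without any one of L4440 replicates 1, 2 and 4, ash-2 replicates 1 and 3, hsf-1 replicate 2 or ash-2 + hsf-1 replicate 1. In all it was lost in 12 of 30 alternatives, among them quantile normalization, both other filters on low values and the covariate, with changes as small as -0.14 (adjusted p = 0.531).

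The distal tip cell, which also carries the somatic innexins, had 3 tested markers. In hsf-1 animals 1 rose, mig-6, a papilin of the matrix (0.54 ± 0.15, adjusted p = 0.0249). That call was lost under median-of-ratios scaling and with the replicate numbers of the titles as a block. It was also lost without any one of L4440 replicates 2, 4 and 5 or hsf-1 replicates 1 and 3. mig-6 averaged 70.4 FPKM in hsf-1 and 48.4 in L4440 animals, and values from whole animals do not show which cells made it. lag-2, the Notch ligand of the distal tip cell, averaged 0.842 FPKM in hsf-1 animals and 0.833 in L4440 animals. In ash-2 animals limma called 0 of the 3, with 1 at an unadjusted p under 0.05.

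Of 13 germline markers limma called 0 in each of the 6 comparisons, with 0 to 3 at an unadjusted p under 0.05, beside 0.107% to 19.6% of all genes called. Of 12 tested genes of the GLP-1 Notch pathway, which keeps germline stem cells, 1 rose in ash-2 animals, lst-1, a direct target of the receptor (0.49, adjusted p = 0.00771), and 0 were called in hsf-1 animals, also at an unadjusted p. Of 14 genes of oocyte meiotic maturation, 2 rose in ash-2 animals, goa-1, a G protein alpha subunit (0.46, 0.0174), and dab-1, a Disabled homolog (0.38, 0.0247). In hsf-1 animals 0 of the 14 were called, with 1 at an unadjusted p under 0.05. Without the 4 libraries with few detected genes, which include ash-2 replicates 1 and 3, lst-1 and dab-1 were no longer called. The dab-1 call was also lost without any one of L4440 replicates 1, 2 and 4 or ash-2 replicates 1 and 3. With the covariate, whose values did not overlap between ash-2 and L4440 animals, neither was called. dab-1 was also lost under median-of-ratios scaling and without the trend and robust settings of the fit.

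The protein kinase A pathway acts in sheath cells upstream of meiotic maturation. Of its 3 tested genes, limma called 0 in ash-2 animals (0 unadjusted) and 0 in hsf-1 animals (1 unadjusted). The 3 genes of malonyl-CoA synthesis and use were not called in ash-2 or hsf-1 animals (0 unadjusted in both), and 1 fell in ash-2 + hsf-1 animals against L4440, pod-2, the acetyl-CoA carboxylase (-0.62, adjusted p = 0.0446), named after its value was seen. In that comparison 9.08% of all genes were called, and the pod-2 call was lost in 20 of 30 alternatives.

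Markers of other cells were counted to see which moved beside inx-8. Of 33 tested sperm genes, 33 fell in ash-2 animals, with a median of -2.83, whereas 1 rose (msp-74, a major sperm protein gene of a near-identical family) and 0 fell in hsf-1 animals, with 15 at an unadjusted p under 0.05. The sum over 35 sperm genes was 3660.7 to 7653.5 in hsf-1 animals, above all L4440 libraries. In ash-2 + hsf-1 against ash-2 animals, where inx-8 fell most, 31 sperm genes rose and 0 fell, with a median of 2.27, beside 15.8% of all genes called. Against hsf-1 animals 0 rose and 19 fell, beside 9.71%, and against L4440 0 rose and 2 fell, beside 9.08%. Of 5 body wall muscle genes 0 were called in ash-2 or hsf-1 animals against L4440 (0 unadjusted in ash-2 and 2 in hsf-1 animals). The part of these cells in the inx-8 values was not tested.

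In the authors' deposited table, which holds their own ratio of group means and q-value, inx-8 was at a ratio of 0.293 in hsf-1 against L4440 (q = 8.05e-09) and 0.251 in ash-2 + hsf-1 against ash-2 animals (q = 2.38e-10), and was marked significant in both. In the authors' deposited table for ash-2 against L4440 all 5 members had q-values under 0.05, with ratios of 1.08 to 1.51. None of the 5 was marked, where 12.5% of genes were marked. A q-value under 0.05 was thus not enough for the mark. The share of all genes with a q-value under 0.05 was not counted, so the 12.5% is no measure for these 5 q-values. Without that share, their number is no result about the members. In the authors' deposited table for hsf-1 against L4440, inx-9 had a ratio of 0.608 and q = 0.00061 without a mark, beside 6.27% of genes marked. In their table for ash-2 + hsf-1 against ash-2, inx-9 had a ratio of 0.778 and q = 0.0349. It was not marked there either, beside 7.36% of genes marked. In the authors' deposited tables these unmarked q-values were under 0.05 where the adjusted p of limma was not.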

How the data were processed

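The authors deposited 1 FPKM value for each gene in each library. The ratio of group means (fold change), its log2 value, the p-value and the q-value of 3 comparisons were also deposited by the authors. Tools used by the authors were cutadapt, HISAT2, StringTie and DESeq2, on build WBcel235, per the submitters' processing notes. Their versions and their roles for single columns are not given in the sources used. The library kit was TruSeq stranded mRNA, per the labels' protocols. Read counts were not used here, so the fragments behind a value were estimated from the most common small FPKM step times length, within a fixed window that bounds the estimate. Precision was taken from the spread between libraries.

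The members, gene lists and tests were chosen with earlier results of these data known. The 13084 genes that reached an FPKM of 1 in 4 or more libraries were tested. log2(FPKM + 0.5), which understates changes of low genes, was fitted for all 17 libraries together with limma 3.58.1 (lmFit, then robust eBayes with a mean trend) under R 4.3.3. Each of 6 contrasts was adjusted by Benjamini-Hochberg over all tested genes and called at an adjusted p under 0.05; rose and fell mean called. SE and 95% intervals come from that fit. The script was tested on simulated data. The p-values measure spread between libraries of 1 experiment. Tables were handled with Python 3.11.15 and pandas 2.3.3.

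Named genes are the 5 members, the 2 targets, up to 3 called genes of each list in ash-2 or hsf-1 against L4440, and the 3 genes with the highest Pearson r with each member over 17 libraries. lim-7, ceh-18, fln-1, lag-2, inx-5, inx-12, inx-13 and pod-2 were added after their values were seen. The lists were other innexins, sheath signalling, Notch, meiotic maturation, malonyl-CoA, and markers of sheath and spermatheca, distal tip cell, germline, sperm and body wall muscle; embryo, intestine and neuron markers are given among the other observations. Gene positions came from the Ensembl annotation of WBcel235. Alternatives were other pseudocounts (0.1 and 1), filters, scalings, fits, replicate blocks, the summed pair and each library left out. No 2 libraries held identical values; the highest r between any pair was 0.993.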

Additional observations from a re-analysis of the deposited data

How the results depend on the processing

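The falls of inx-8 kept their direction and call in every alternative, with log2 changes of -1.85 to -1.44 in hsf-1 against L4440, -1.55 to -1.02 in ash-2 + hsf-1 against L4440 and -2.29 to -1.54 in ash-2 + hsf-1 against ash-2 animals; the smallest of each was the sum of inx-8 and inx-9. Over all alternatives, 811 of 889 gene values kept direction and side of the threshold, 53 changed sign, 25 passed newly and 0 lost a call. Leaving out a library of a group not compared could not move a log2 change, so the direction was fixed in many of these fits. Of the members only inx-8 was called in the fit reported, so only its calls could be lost. Behind inx-9, the lowest of the 5, stood an estimated 103 to 468 fragments per library.

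The number of members called moved in 4 comparisons. In ash-2 animals against L4440 (0 called) it was 2 after median-of-ratios scaling (inx-8, inx-9), 1 after quantile normalization (inx-9), 1 in a fit of those groups only (inx-8) and 2 with detected genes as a covariate (inx-9, inx-14), and 0 to 1 with each library left out. In hsf-1 animals against L4440 (1 called) it was 2 under both scalings and with the block on description numbers (inx-9 added), and 3 with the covariate (inx-14 added). In ash-2 + hsf-1 against ash-2 animals (1) it was 2 under both scalings and 3 with the covariate, which add the same genes. In ash-2 + hsf-1 against hsf-1 animals (0) it was 1 under both scalings (inx-9), 2 with the covariate (inx-9, inx-14), and 0 to 2 with each library left out. The calls over all genes moved as well. In those 4 comparisons in that order they were 2570, 1391, 2061 and 1270 in the fit reported, 3411, 1643, 2786 and 1490 under median-of-ratios scaling, 2951, 2157, 2277 and 1832 under quantile normalization, and 3710, 5181, 3548 and 4635 with the covariate. In fits of the compared groups alone they were 3157, 1540, 895 and 409, and without the 4 libraries 1994, 2844, 1909 and 2235. The cause was not tested. The covariate and the removal of 4 libraries were chosen after seeing the data. Values of the covariate did not overlap between ash-2 and L4440 animals, so that fit cannot tell it from ash-2 RNAi there.

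The labels do not say whether libraries with the same replicate number shared a batch. Deviations of same-numbered libraries correlated at -0.69 to 0.69 over 24 pairs by title number, 14 of them over 0.1, and at -0.50 to 0.69 over 22 pairs by description number, 14 over 0.1; 9 and 10 of the 17 libraries correlated best with their own number. With a replicate block on title numbers the calls over all genes were 2614, 1072, 1098, 2052, 1302 and 7, and on description numbers 4110, 1687, 1387, 2925, 1729 and 15, against 2570, 1391, 1188, 2061, 1270 and 14 without a block, for ash-2, hsf-1 and ash-2 + hsf-1 against L4440, ash-2 + hsf-1 against ash-2 and against hsf-1, and the interaction. Under the description block inx-9 was called in hsf-1 against L4440 (-0.66, adjusted p = 0.038), and under the title block inx-3 and mig-6 were not called in that comparison.

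No value that changed sign passed the threshold. With the replicate block on description numbers, inx-14 was at -0.12 in ash-2 and 0.04 in ash-2 + hsf-1 against L4440 and 0.16 in ash-2 + hsf-1 against ash-2, and inx-21 at -0.06 in ash-2 and 0.05 in hsf-1 against L4440, 0.19 in ash-2 + hsf-1 against ash-2 and 0.15 in the interaction (0.02 with title numbers). Quantile normalization gave 0.07 for inx-21 in hsf-1 and 0.05 for inx-14 in ash-2 + hsf-1 against L4440. Median-of-ratios scaling gave 0.06 for inx-14 in ash-2 + hsf-1 against L4440 and -0.17 for inx-22 in the interaction. Without the 4 libraries, hsf-1 against L4440 gave 0.01 for inx-14 and 0.35 for inx-21, ash-2 + hsf-1 against L4440 gave 0.05 for inx-14 and -0.06 for inx-22, ash-2 + hsf-1 against hsf-1 gave -0.33 for inx-21, and the interaction gave -0.08, -0.42 and -0.19 for inx-9, inx-14 and inx-22. With the covariate, inx-14 was at 0.13 in ash-2 + hsf-1 against L4440, and the interaction was -0.01 for inx-9 and -0.20 for inx-14. With each library left out, the ranges that crossed 0 were, for inx-14, -0.05 to 0.23 in ash-2, -0.54 to 0.01 in hsf-1 and -0.24 to 0.23 in ash-2 + hsf-1 against L4440, -0.32 to 0.16 against ash-2, -0.03 to 0.61 against hsf-1 and -0.10 to 0.53 in the interaction. For inx-21 they were -0.19 to 0.35 in hsf-1 and -0.04 to 0.32 in ash-2 + hsf-1 against L4440, -0.15 to 0.21 against ash-2, -0.26 to 0.33 against hsf-1 and -0.37 to 0.21 in the interaction. In ash-2 + hsf-1 against L4440 they were -0.30 to 0.01 for inx-9 and -0.06 to 0.17 for inx-22.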

Other observations

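Markers of tissues outside the gonad were counted in the same fit, where 19.6% of all genes were called in ash-2 and 10.6% in hsf-1 animals against L4440. Of 5 intestine genes, 1 fell in ash-2 animals against L4440, the intermediate filament gene ifb-2 (-0.75). In hsf-1 animals 2 rose, ifb-2 (1.60) and the endodermal regulator elt-2 (1.37), and 1 fell, the esterase gene ges-1 (-1.07). Of 5 neuron genes, 1 rose in ash-2 animals, the synaptobrevin gene snb-1 (0.30), and 2 rose in hsf-1 animals, snb-1 (0.42) and sbt-1 (0.73). Of 3 tested embryo genes, 1 rose in ash-2 animals, end-1, an endoderm regulator (0.91 ± 0.31, adjusted p = 0.0471), a call lost in 14 of 28 alternatives, and 0 were called in hsf-1 animals by limma, with 2 at an unadjusted p under 0.05. The summed FPKM of 7 embryo genes was 4.51 to 8.82 in ash-2, 0.79 to 2.95 in hsf-1, 1.33 to 6.34 in ash-2 + hsf-1 and 2.2 to 4.25 in L4440 animals. None of the 20 sets of values formed by 5 innexins in 4 groups held a library far from the others by Dixon's criterion.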
